A study of Mus musculus with 24 samples.

Results

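The genes described here encode the proteins of the cytosolic ribosome, measured in the thoracic aorta of mice fed a selective cyclooxygenase-2 inhibitor or plain chow. They are the rows of a table of 25941 genes whose symbols are Rpl or Rps followed by a number, with an optional letter a, x, y or l, together with Rpsa, Rplp0, Rplp1 and Rplp2, without pseudogene rows, at a mean of at least 10 counts over 24 libraries. The symbols alone matched 79 genes, and 77 reached that count, 45 of the large and 32 of the small ribosomal subunit. Those left out were Rpl3l, a striated muscle relative of Rpl3, at a mean count of 0.958, and Rpl39l, a relative of Rpl39 known from testis, at 2.29. The 77 genes ran from a mean count of 889.4 for Rps27l to 20596 for Rpl4, so all 77 were among the 14451 genes tested and none was lost to the filter on low counts.

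PolyA RNA was sequenced from aortas of wild-type C57BL/6 adults, males of 10 to 12 weeks, with 8 libraries in each of 3 groups. The celecoxib group ate chow holding that drug at 100 mg/kg/day, the rofecoxib group chow holding 50 mg/kg/day, and the control group chow with no drug, each for 3 weeks, and tissue was taken at zeitgeber time 11, which is 11 hours after lights on. Celecoxib carries a sulfonamide and rofecoxib a methylsulfone group, and because their doses differed the 2 drug groups are compared here as groups and not at a matched dose. The 8 libraries of a group are described as biological replicates, but the animal that gave each is not named, so the p-values measure the spread between these libraries. Library totals lay between 21652432 and 21687906 counts. Control 6 had the highest summed level of white and general adipocyte markers, at 8480 CPM (counts scaled to library size) against 1630 to 4690 in the other controls, and rofecoxib 2 the highest of cardiac muscle markers, at 581 CPM against 66.7 to 120 in the other 23 libraries. Smooth muscle markers, which define the aortic wall, summed to between 39900 and 60400 CPM in every library.

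The cytosolic ribosome is a large subunit, which joins amino acids, and a small subunit, which reads the messenger RNA, each built from ribosomal RNA and one copy of most of these proteins. The messages of most ribosomal proteins begin with a C followed by a run of pyrimidines, the 5′ terminal oligopyrimidine (TOP) tract, through which the kinase complex mTORC1 and the RNA-binding protein LARP1 control their translation and stability. The genes are expressed in nearly every cell and rise or fall together with growth in many tissues, and several are used as reference genes for PCR. In the artery wall, ribosome production is part of the hypertrophic growth of smooth muscle cells.

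The starts of 8 of these genes show what the TOP tract looks like and where the annotated start carries none. Each line gives 10 bases before and 20 bases from the first annotated base, 5′ to 3′ on the coding strand, from RefSeq on GRCm38.p6, with a TOP tract that begins at the first base in capitals. Rps15a and Rps18 are genes that rose with rofecoxib, Rps6 and Rpl38 have well known separate roles, Rplp2 and Rpl13 differed between the drugs, and Rps3 and Rpl39 rose with rofecoxib.
Rps15a, chr7:118116128-118116157, minus strand: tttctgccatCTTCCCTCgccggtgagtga
Rps18, chr17:33955646-33955675, minus strand: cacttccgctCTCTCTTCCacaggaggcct
Rps6, chr4:86857348-86857377, minus strand: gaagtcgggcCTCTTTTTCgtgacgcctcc
Rpl38, chr11:114668570-114668599, plus strand: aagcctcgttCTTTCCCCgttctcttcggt
Rplp2, chr7:141447641-141447670, plus strand: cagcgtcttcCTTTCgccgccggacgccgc
Rps3, chr7:99483690-99483719, minus strand: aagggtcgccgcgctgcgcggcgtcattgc
Rpl39, chrX:37085203-37085232, minus strand: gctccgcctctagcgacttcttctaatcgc
Rpl13, chr8:123102340-123102369, plus strand: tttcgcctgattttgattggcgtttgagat

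A promoter window of 300 bases, 250 before and 50 from the annotated start, was matched by symbol for 56 of the 77 genes. A C followed by at least 4 bases that are C or T stood at the annotated first base of 13 of the 56 genes (23.2%), against 3.01% of 27025 genes in the same table. Within 10 bases on either side of the start such a run was found for 62.5% of the 56 genes and 34.4% of all. Other motifs were searched on both strands, none of which contains another. The GC box GGGCGG was in the window of 60.7% of the ribosomal protein genes (38.2% of all), the ETS-type motif CCGGAAG in 41.1% (9.93%), the YY1-type motif ATGGCGGC in 7.14% (2.6%) and the TATA box TATAAA in 10.7% (15.7%). These are matches of letters in a window, and an absent match says only that these letters are not there. The median log2 fold change of the 13 genes with a TOP tract at the first base was 0.09 with celecoxib and 0.09 with rofecoxib, and that of the 43 without one was 0.10 and 0.09.

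Levels of the genes were compared as mean CPM over the 24 libraries per kilobase of coding sequence. Counts can also come from the rest of the transcript, so this measure favours genes whose coding part is a small share of it. Rpl39 had 153 coding bases in a transcript of 612, and Rps29 168 in 390. The order was not computed per kilobase of transcript. Rplp1, an acidic protein of the large subunit stalk, was highest at 1720 CPM per kilobase, followed by Rps29, a small zinc-binding protein of the small subunit, at 1470. Rpl10, which completes the large subunit at its peptidyl transferase centre, Rpl21 and Rpl39 came next, each at 1100. The lowest were Rps27l, a relative of Rps27 known as a target of p53, at 163, Rpl15 at 274 and Rpl27 at 309 CPM per kilobase. Apart from Rps27l, 75 of the 76 genes with a coding length thus lay between 274 and 1720 CPM per kilobase. Their proteins enter the ribosome in nearly equal numbers. How much of this range comes from the choice of length was not tested. Rpl24 was left out because the identifier on its row names another gene, Zbtb11, in GENCODE M21, and its span in the table covers neighbouring genes. Genes of near-identical sequence can share reads: 142 pseudogene rows together held 1507 counts per library, 0.268% of the counts of the 77 genes, and the sources used here do not state how reads that match several places were counted.

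**Figure D1:**
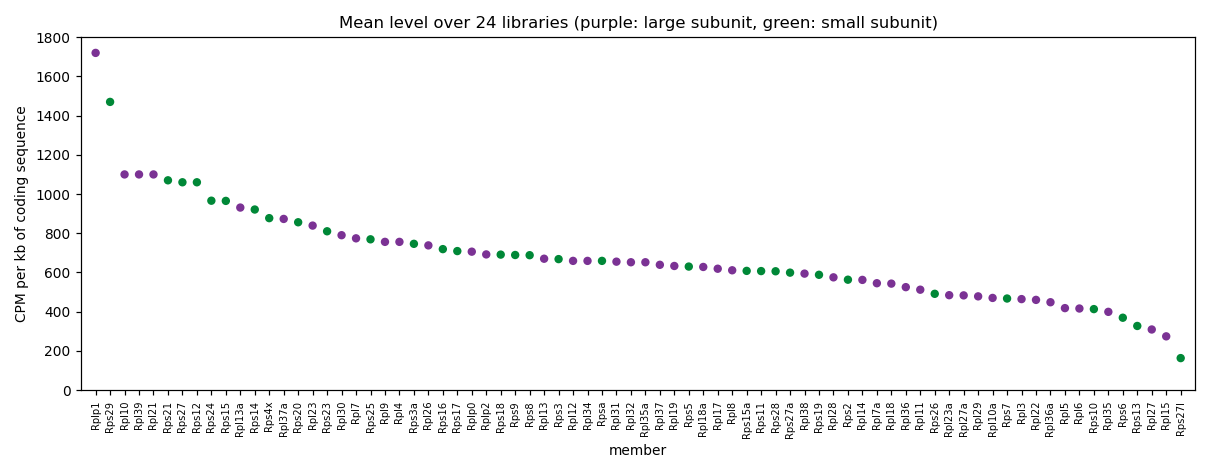
Mean level of 76 ribosomal protein genes over 24 libraries, in CPM per kilobase of coding sequence, on a linear axis from 0, ordered from highest to lowest; purple points are large and green points small subunit genes. Rplp1 (1720) and Rps29 (1470) stand above the rest and Rps27l (163) below it.

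Together the 77 genes took 2.51% ± 0.10 of all counts in controls, 2.63% ± 0.11 with celecoxib and 2.64% ± 0.10 with rofecoxib (SD, n = 8 each). The control libraries lay between 2.386% and 2.73%, with a median of 2.488%, and the highest was control 6. The celecoxib libraries lay between 2.468% and 2.74%, with a median of 2.674%; celecoxib 1 (2.468%) and celecoxib 2 were the lowest, and the other 6 were at 2.598% or above. The rofecoxib libraries lay between 2.491% and 2.782%, with a median of 2.681%, and rofecoxib 5 (2.491%) and rofecoxib 1 (2.493%) were the lowest. The groups therefore overlapped, and each drug group held 2 libraries within the range of the controls other than control 6. The share is a score over the chosen genes and was not tested. In whole tissue, a larger share of ribosome-rich cells and more of these messages in each cell cannot be told apart.

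**Figure D2:**
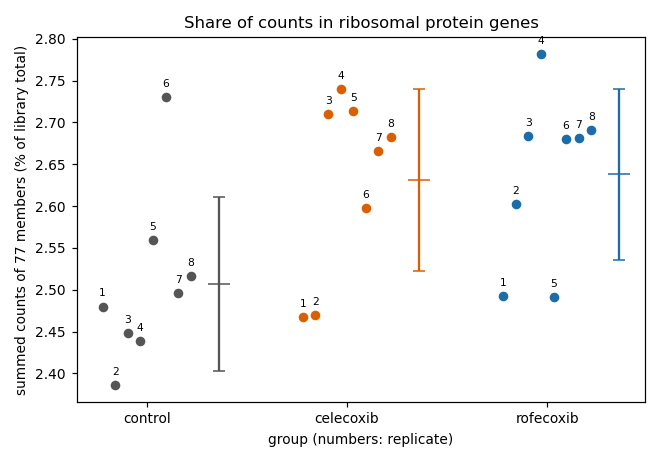
Summed counts of the 77 ribosomal protein genes in percent of the library total, for each of the 24 libraries (points, numbered by replicate), with the mean and SD of each group beside them; the axis does not start at 0. Control 6 (2.73%) lies among the upper drug libraries, and celecoxib 1 (2.468%) and celecoxib 2 lie among the controls.

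The genes moved together from library to library. After each group's mean was removed, 68.6% of the variance of the 77 genes lay on their first principal component, against 27.6% for the 4828 other genes at least as abundant as Rps27l. Their spread within groups was small, with a median SD of 0.083 on the log2 scale against 0.123 for the other genes. It was lowest for Rps3 (0.0502), a small subunit protein at the entry of the messenger RNA, and highest for Rpl36 (0.15), a large subunit protein. The other genes were not matched to the 77 for abundance, as their lower limit was set by Rps27l, the least abundant of the 77. These values share libraries and depth and are given as a description.

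**Figure D3:**
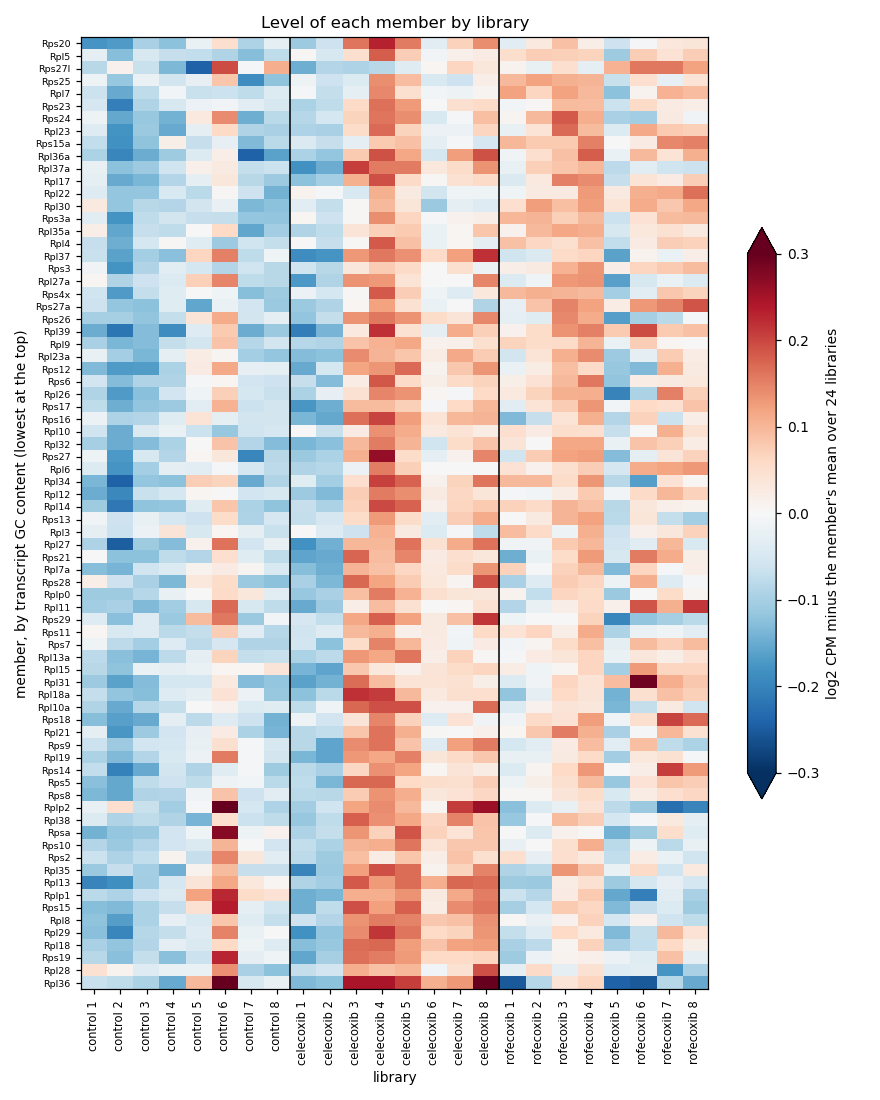
Log2 CPM of 76 ribosomal protein genes (rows, lowest transcript GC content at the top) in 24 libraries (columns), as the difference from each gene's mean over the libraries; colours end at -0.3 and 0.3. Control 2 and celecoxib 1 and 2 are low for most genes, celecoxib 3, 4 and 5 are high, and Rpl36 in the bottom row is low in most rofecoxib libraries.

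With celecoxib, most ribosomal protein genes had slightly higher levels than in control aortas and none was called. Differences were tested with edgeR's quasi-likelihood test on all genes, and a gene is called at a Benjamini-Hochberg adjusted p under 0.05. The log2 fold change was above 0 for 76 of the 77 genes, with a median of 0.10, a range from -0.02 for Rps27l to 0.18 for Rpl36a, and a median of -0.0053 over every gene tested. None of the 77 was called higher, against 0.913% of all genes tested, and none lower, against 0.498%. At an unadjusted p under 0.05, 42 genes were higher and 0 lower, against 8.74% of all genes higher. Because the genes moved together from library to library, these counts, like those with rofecoxib below, are not of independent observations. DESeq2 called 10 higher (1.89% of all genes), and edgeR after correction for transcript GC content called Rpl10 and Rps3a higher (1.38% of all genes).

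Rpl36a, a large subunit protein near the exit site for transfer RNA, had the smallest p with celecoxib. Its level was between 120 and 144 CPM in controls (median 130) and between 131 and 162 CPM with celecoxib (median 152). The groups overlapped, and 5 of 8 celecoxib libraries lay above every control (log2 fold change 0.18 ± 0.05 SE, edgeR adjusted p = 0.0669). Rpl5, which carries the 5S ribosomal RNA and binds the p53 regulator MDM2, was between 341 and 365 CPM in controls (median 353) and between 360 and 422 CPM with celecoxib (median 377). All but 1 celecoxib library exceeded every control for Rpl5 (0.12 ± 0.03, edgeR adjusted p = 0.0863). Rpl10a was between 274 and 307 CPM in controls (median 293) and between 289 and 348 CPM with celecoxib (median 325; 0.14 ± 0.04, edgeR adjusted p = 0.0879). The 95% interval of the log2 fold change ran from 0.07 to 0.28 for Rpl36a, from 0.05 to 0.19 for Rpl5 and from 0.05 to 0.23 for Rpl10a. Rps27l was at 40.3 ± 3.86 CPM in controls and 39.8 ± 2.01 CPM with celecoxib (SD, n = 8 each). No call passed in the fit with all libraries, but 4 genes were called without celecoxib 1, 5 without celecoxib 2 and 3 without control 6.

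With rofecoxib, 15 ribosomal protein genes rose against control and none fell. The 15 were 9 of 45 large subunit and 6 of 32 small subunit genes, and 2.43% of all genes tested were called higher and 2.87% lower. The log2 fold change was above 0 for 69 of the 77 genes, with a median of 0.09 against -0.0002 over every gene tested, and ran from -0.12 for Rpl36 to 0.21 for Rpl39. The rises were small, between 9.05% for Rpl5 and 15.7% for Rpl39 among the 12 genes with the smallest p. The 8 genes below 0, which include Rpl36, Rplp2, Rplp1, Rps29 and Rpl13, were not called lower. This comparison and the one with celecoxib share the control libraries.

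Of the small subunit genes, Rps27a, which is made as a fusion with ubiquitin, was between 251 and 276 CPM in controls (median 263) and between 275 and 319 CPM with rofecoxib (median 305). All but 1 rofecoxib library exceeded every control (log2 fold change 0.19 ± 0.04, edgeR adjusted p = 0.0123). Rps15a was between 209 and 240 CPM in controls (median 224) and between 237 and 263 CPM with rofecoxib (median 252; 0.17 ± 0.04, edgeR adjusted p = 0.0127). Rps18, a protein of the small subunit head and a common PCR reference gene (mm9 chromosome 17, 34088742 to 34093148), was between 281 and 308 CPM in controls (median 293). It was between 312 and 362 CPM with rofecoxib (median 326), so that the groups did not overlap (0.18 ± 0.04, edgeR adjusted p = 0.0164). The span of Rps18 overlaps that of Vps52, whose mean count was 17.7% of that of Rps18. Rps3 (mm9 chromosome 7, 106626204 to 106632450), which also takes part in DNA repair, was between 430 and 483 CPM in controls (median 463) and between 493 and 533 CPM with rofecoxib (median 512), again without overlap (0.14 ± 0.03, edgeR adjusted p = 0.0196). Rps3a and Rps14 were the other small subunit genes called (0.16 ± 0.03 and 0.16 ± 0.04, edgeR adjusted p = 0.0153 and 0.0382).

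Of the large subunit genes, Rpl30 (ENSMUSG00000058600, mm9 chromosome 15, 34370058 to 34373597) had the smallest p. Its level was between 248 and 278 CPM in controls (median 257) and between 280 and 297 CPM with rofecoxib (median 292), and each rofecoxib library exceeded every control (log2 fold change 0.17 ± 0.03, edgeR adjusted p = 0.0119). Rpl30, Rps18 and Rps3 were the genes whose rofecoxib and control libraries did not overlap, 3 of 77, against 0.201% of all genes tested that were higher without overlap. Rpl39, a very small protein of the tunnel through which the new chain leaves (mm9 chromosome X, 34622313 to 34625599), had the largest fold change. It was between 145 and 178 CPM in controls (median 153) and between 170 and 193 CPM with rofecoxib (median 179; 0.21 ± 0.05, edgeR adjusted p = 0.0259). Rpl22, whose product also binds other RNAs, rose by 10.8%, from 168 ± 5.57 to 186 ± 8.02 CPM (SD, n = 8 each; edgeR adjusted p = 0.0182). Rpl36a (0.19), Rpl24 (0.15) and Rpl5 (0.12) were also called, with edgeR adjusted p = 0.0332, 0.037 and 0.04. The row of Rpl24 carries the identifier of Zbtb11, so its counts may include reads of other genes. Its span overlaps that of Pcnp, whose mean count was 35.6% of that of Rpl24. Rpl31, Rpl7 and Rpl6, named after their values were seen because they complete the 15, were at 0.17, 0.13 and 0.13 (edgeR adjusted p = 0.0436, 0.0453 and 0.0495). Their calls were not followed one by one in the fits that left out 1 library.

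Rpl30, Rps27a, Rps15a, Rps3a, Rps18, Rpl22 and Rps3 were called in each of the 24 fits that left out 1 library. The call of Rpl39 was lost without control 7 (edgeR adjusted p = 0.0537), that of Rpl36a without control 7 (0.0738), rofecoxib 7 (0.0516) or rofecoxib 8 (0.0663), that of Rps14 in 6 fits, that of Rpl24 in 7 and that of Rpl5 in 11. The count of 15 was 7 without control 7, 9 without control 5, 8 without rofecoxib 7, 8 without rofecoxib 8 and 23 without rofecoxib 5.

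**Figure D4:**
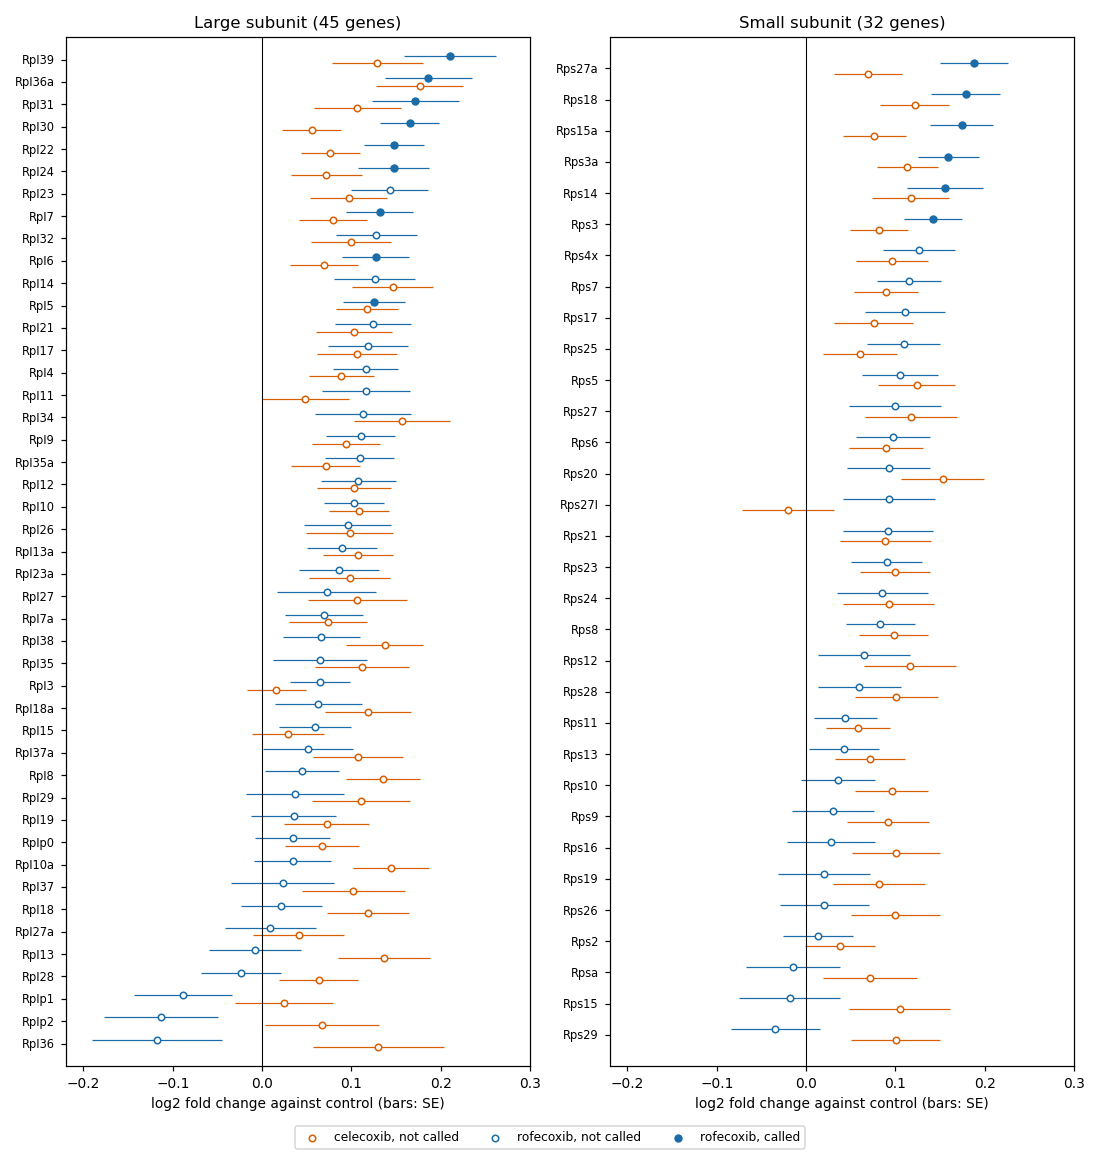
Log2 fold change against control (points) with its SE (bars) for each of the 77 genes, large subunit at left and small subunit at right, ordered by the value with rofecoxib; orange is celecoxib, blue is rofecoxib and filled points were called. The 15 filled points lie at the upper end, between 0.12 for Rpl5 and 0.21 for Rpl39, and no celecoxib point is filled.

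Between the drugs, 3 ribosomal protein genes were higher with celecoxib and 3 were lower. Of all genes tested, 11.5% were called higher with celecoxib than with rofecoxib and 11.2% lower, so both shares among the 77 genes lie below those of all genes. The median log2 difference was 0.012, with 44 of the 77 genes above 0. Rpl36 was highest with celecoxib: its celecoxib libraries 1 to 8 were at 150, 151, 195, 195, 190, 177, 180 and 204 CPM, and its rofecoxib libraries at 138, 155, 169, 172, 139, 138, 155 and 148 CPM. Of the celecoxib libraries of Rpl36, 6 lay above every rofecoxib library, and celecoxib 1 and 2 lay within their range (log2 difference 0.25 ± 0.07, edgeR adjusted p = 0.0188). Controls ran from 148 to 207 CPM for Rpl36, with a median of 158. The span of Rpl36 overlaps that of Lonp1, whose mean count was 50% of that of Rpl36, and without stated strand use their reads cannot be told apart.

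Rplp2, the second acidic stalk protein, was between 203 and 245 CPM with rofecoxib (median 222) and between 221 and 284 CPM with celecoxib (median 256; 0.18 ± 0.06, edgeR adjusted p = 0.0442). Rpl13 was between 392 and 437 CPM with rofecoxib (median 408) and between 394 and 481 CPM with celecoxib (median 469; 0.14 ± 0.05, edgeR adjusted p = 0.0451). The 3 lower genes were Rpl30 (-0.11 ± 0.03, edgeR adjusted p = 0.0212), Rps27a (-0.12 ± 0.04, edgeR adjusted p = 0.0288) and Rps15a (-0.10 ± 0.04, edgeR adjusted p = 0.0492). Celecoxib levels of Rpl30 were between 252 and 291 CPM, those of Rps27a between 259 and 304 CPM and those of Rps15a between 226 and 252 CPM, each overlapping the rofecoxib libraries. Rpl36 and Rpl30 were called in each of the 24 fits that left out 1 library. The call of Rplp2 was lost in 16 fits, that of Rpl13 in 17, that of Rps15a in 14 and that of Rps27a without celecoxib 8 (0.054) or rofecoxib 8 (0.0556). The count of 6 was 3 without celecoxib 3 or 7, rofecoxib 1, 2 or 7 or control 3, and 2 without celecoxib 8 or rofecoxib 8.

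The fold changes of the ribosomal protein genes varied with the GC content of their transcripts. Libraries differed in how levels depended on GC. In each library, log2 CPM minus the gene's mean over the 24 libraries was regressed on GC fraction, over genes with a mean log2 CPM above 3. The slope averaged 0.33 ± 0.87 in controls, 0.79 ± 0.92 with celecoxib and -1.12 ± 1.0 with rofecoxib (SD, n = 8 each). Across genes, which are not independent replicates, Spearman's rho between GC content and log2 fold change with rofecoxib was -0.56 over 76 ribosomal protein genes and -0.47 over 14074 genes. For celecoxib against rofecoxib it was 0.58 and 0.54, and for celecoxib against control 0.11 and 0.19. The 76 genes were divided at 49.5% and 53.6% GC into 26, 25 and 25 genes. The median log2 fold change with rofecoxib was 0.12 for the 26 genes of lowest GC content, 0.09 for the middle 25 and 0.04 for the 25 of highest GC content. Of the called genes with a GC value, 10 were of the lowest, 1 of the middle and 3 of the highest GC content. With celecoxib the 3 medians were 0.10, 0.10 and 0.11.

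After the dependence on GC was removed library by library, 9 genes were called higher with rofecoxib and none lower, against 0.561% of all genes. Only Rps14, Rps18, Rps27a and Rpl31 were among both the 9 and the 15, while the median log2 fold change of the 77 genes was 0.10 and 71 were above 0. Rpl24, which has no GC value, received no correction in this fit. Rps18 was then at 0.24 (edgeR adjusted p = 0.0115), Rps14 at 0.22 (0.0203) and Rps27a at 0.15 (0.0469). Rpl30 (0.12, edgeR adjusted p = 0.0746), Rps15a (0.10, 0.121), Rps3 (0.10, 0.0978) and Rpl39 (0.17, 0.103) were no longer called, and Rpl5 was at 0.02 (0.839). Between the drugs none of the 6 called genes passed after GC correction. Rps20 was called higher with celecoxib in their place, against 5.1% of all genes, and Rpl36 was at 0.02 (edgeR adjusted p = 0.882). Without the correction Rps20 was at 0.06 (edgeR adjusted p = 0.373). The correction relies on annotated transcripts: that of Rps20 had 3706 bases, 357 of them coding, at 41.3% GC. The transcript of Rpl5 had 2045 bases at 42.7% GC. Whether these transcripts are the ones made in aorta was not tested.

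**Figure D5:**
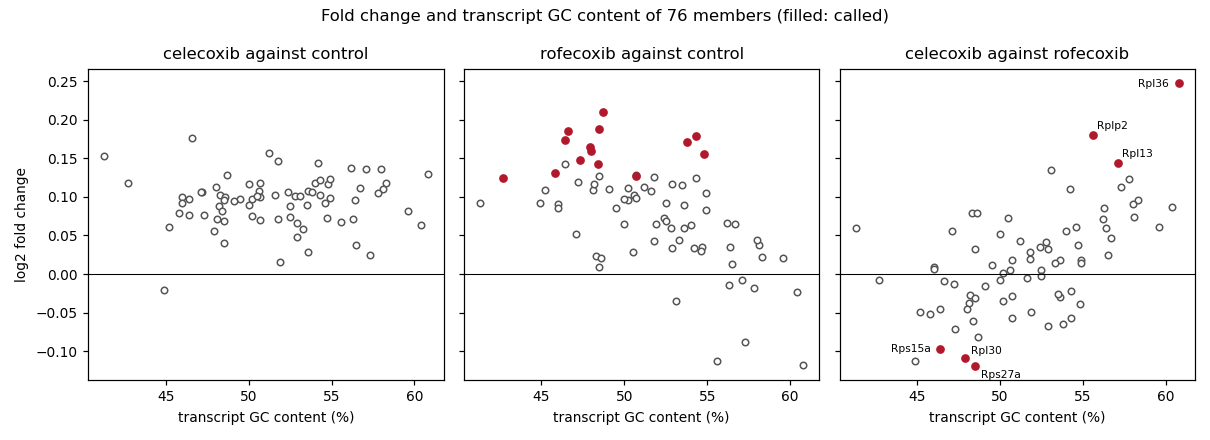
Log2 fold change (vertical axis) against transcript GC content in percent (horizontal axis) of 76 ribosomal protein genes in the 3 comparisons; red points were called. Values fall with GC content for rofecoxib against control and rise with it for celecoxib against rofecoxib, where Rpl36, Rplp2 and Rpl13 lie at the GC-rich end and Rps15a, Rpl30 and Rps27a at the GC-poor end.

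Rps18, Rplp0, Rpl13a, Rpl19 and Rpl32 are common references for PCR. Of these, Rps18 rose with rofecoxib by 13.2%, and Rplp0, Rpl13a, Rpl19 and Rpl32 were not called by edgeR with either drug in the fit with all libraries. With rofecoxib, Rpl32 was called higher by DESeq2 (0.12, adjusted p = 0.0443) and Rpl13a by edgeR after correction for transcript length (0.11, adjusted p = 0.0492). With celecoxib, Rps18 was called higher by DESeq2 (0.12, adjusted p = 0.0304) but not by edgeR (0.12, adjusted p = 0.109). The 95% intervals of the log2 fold change with rofecoxib were -0.05 to 0.12 for Rplp0, 0.01 to 0.17 for Rpl13a, -0.06 to 0.13 for Rpl19 and 0.03 to 0.22 for Rpl32. With celecoxib they were -0.02 to 0.15 for Rplp0, 0.03 to 0.19 for Rpl13a, -0.03 to 0.17 for Rpl19, 0.01 to 0.19 for Rpl32 and 0.04 to 0.20 for Rps18. Among genes with known separate roles, Rps6, the substrate of S6 kinase, was at 264 ± 8.07 CPM in controls, 281 ± 18.7 with celecoxib and 283 ± 15.3 with rofecoxib. Rpl11, which binds MDM2 with Rpl5, was at 263 ± 18.4, 272 ± 15.1 and 285 ± 20.5 CPM. Rps19, the gene most often mutated in Diamond-Blackfan anaemia, was at 250 ± 21.1, 264 ± 21 and 253 ± 9.67 CPM, and Rpl38, known for its effect on the translation of Hox messages, at 119 ± 4.64, 131 ± 9.55 and 125 ± 5.78 CPM (SD, n = 8 each). None of these 4 was called by edgeR in any comparison in the fit with all libraries. Rpl38 was called higher with celecoxib by DESeq2 (adjusted p = 0.0484) and by edgeR without celecoxib 1 (adjusted p = 0.0388) or celecoxib 2 (adjusted p = 0.044), and Rpl11 higher with rofecoxib by edgeR after correction for transcript length (adjusted p = 0.0395).

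A list of 20 translation factors and other genes with TOP starts had a median log2 fold change of 0.02 with celecoxib and 0.09 with rofecoxib. None was called with celecoxib. With rofecoxib 3 rose and none fell, against 2.43% and 2.87% of all genes tested: Eef1b2, a nucleotide exchange factor of elongation, from 231 ± 4.67 to 252 ± 9.02 CPM (edgeR adjusted p = 0.0249), Naca, which binds new chains at the ribosome, from 306 ± 12.5 to 343 ± 13.3 CPM (0.0262), and Nap1l1, a histone chaperone, from 200 ± 14.1 to 224 ± 9.42 CPM (0.0454). Between the drugs 5 of the 20 were lower with celecoxib and none was higher, against 11.2% and 11.5% of all genes tested, namely Eif2s3x (-0.23 ± 0.06), Npm1 (-0.17 ± 0.05), Btf3 (-0.12 ± 0.04), Hnrnpa1 (-0.18 ± 0.05) and Eif3e (-0.16 ± 0.05). Rpl22l1, the paralog that replaces Rpl22 in some ribosomes, rose with rofecoxib from 38 ± 2.96 to 45.5 ± 4.26 CPM (0.26 ± 0.06, edgeR adjusted p = 0.0162). The calls of lists and markers, here and below, come from fits without GC correction and were not repeated with it. Over all genes, that correction took the calls from 766 to 180 with rofecoxib and from 204 to 318 with celecoxib. Between the drugs it took them from 3275 to 1347.

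Ribosome biogenesis genes make and assemble the subunits in the nucleolus. Of 33 tested, none was called with celecoxib (median -0.0067) and 1 fell with rofecoxib (median 0.01): Tcof1, a nucleolar factor of ribosomal RNA transcription, from 29.5 ± 2.39 to 24.1 ± 3.61 CPM (edgeR adjusted p = 0.0383), where 2.87% of all genes tested fell. Between the drugs 3 of the 33 were higher with celecoxib, among them Bop1 (0.27 ± 0.06) and Tcof1 (0.30 ± 0.08), and 5 lower, among them Ncl, the nucleolar protein nucleolin (-0.20 ± 0.05), against 11.5% and 11.2% of all genes. Of 25 tested genes of mTORC1, S6 kinase, LARP1 and MYC, 1 rose with celecoxib: Mxd4, a partner of MAX that opposes MYC, from 236 ± 15.8 to 286 ± 18.9 CPM (edgeR adjusted p = 0.0101), where 0.913% of all genes rose. With rofecoxib 1 of the 25 fell: Tsc2, which restrains mTORC1, from 105 ± 5.8 to 90.1 ± 10.4 CPM (edgeR adjusted p = 0.0389), where 2.87% of all genes fell. Between the drugs Mxd4, Rps6kb2 and Akt1s1 were higher and Sesn3, Larp4 and Tbc1d7 lower with celecoxib, against 11.5% and 11.2% of all genes. The 77 tested mitochondrial ribosomal protein genes had medians of -0.08 and -0.09 with celecoxib and rofecoxib, with 68 and 62 genes below 0 and none called. Genes with symbols of nuclear oxidative phosphorylation subunits had medians of -0.16 and -0.12 over 78 genes, with 1 called in these comparisons, Ndufa4l2, lower with rofecoxib. They were taken by the pattern of the symbol alone, so this list can hold genes that are not subunits. The medians of this list and of the mitochondrial ribosomal list include control 6, the library highest in adipocyte markers, and were not computed without it. The medians of 247 other genes with transcripts under 1000 bases, at least as abundant as Rps27l, were 0.0019 with celecoxib and -0.01 with rofecoxib.

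Cell type markers also differed between the groups. The 12 smooth muscle markers summed to 46210 ± 4220 CPM in controls, 53180 ± 3910 with celecoxib and 54010 ± 3370 with rofecoxib (SD, n = 8 each), with ranges of 39900 to 54500, 49000 to 59000 and 50900 to 60400. Of the 12, 4 rose with celecoxib and 3 with rofecoxib, against 0.913% and 2.43% of all genes tested, among them Acta2 (0.31 and 0.27) and Tagln (0.24 and 0.26). With rofecoxib 5 of 11 fibroblast markers fell (sums of 10700 to 16000 CPM in controls and 10100 to 11900 with rofecoxib), as did 3 of 11 macrophage markers (264 to 429 and 143 to 307 CPM), against 2.87% of all genes tested. None of the 12 white and general or 10 brown adipocyte markers was called with either drug, although 10 and 10 were below 0 with celecoxib and 12 and 9 with rofecoxib. Control 6 held 1740 CPM of brown adipocyte markers, and the other controls 171 to 554 CPM. Group medians for control, celecoxib and rofecoxib were 456.5, 269.5 and 327.5 CPM for brown adipocyte markers. For white and general adipocyte markers they were 3185, 3130 and 2520 CPM. Of 7 tested skeletal muscle markers, Tnnt3 rose with celecoxib, and of 7 tested cardiac markers, Ryr2 (0.47) and Actc1 (2.16) rose with rofecoxib. Actc1 was at 89.1 CPM in its highest rofecoxib library, and without rofecoxib 2 the rofecoxib libraries lay between 3.46 and 14.1 CPM and it was not called (1.02, edgeR adjusted p = 0.0779), while Ryr2 was (0.45, edgeR adjusted p = 0.0313). Endothelial, Schwann cell and lymphocyte and blood markers had no member called against control. Library by library, smooth muscle sums and the ribosomal share did not always go together. Control 6 had 39900 CPM at a share of 2.73%, and rofecoxib 1 had 60400 CPM at 2.493%. Control 2 was low in both (43200 CPM, 2.386%) and celecoxib 3 high in both (59000 CPM, 2.71%). The part of these markers in the shift of the ribosomal protein genes was not tested. When the brown adipocyte score entered the fit as a covariate, 8 of the 77 genes were called with rofecoxib and the median was 0.08. Without control 6 and rofecoxib 2 together, 11 were called with rofecoxib and 1 with celecoxib, and the medians were 0.11 and 0.12.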

How the data were processed

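The authors deposited 1 table of whole-number counts per gene. The submitters' processing notes name STAR 2.5.1b, CASAVA 1.8.2 and the mm9 build. Not given in the sources used here are the counting tool, annotation and strand use. Totals were nearly equal, by a step not given there either. Members, lists and alternatives were chosen with earlier results of these data known. Genes were filtered with filterByExpr and scaled by TMM (0.959 to 1.03). All 24 libraries were fitted with 1 mean per group in edgeR 4.0.16 (R 4.3.3), with p-values adjusted over 14451 genes. The code was also run on simulated counts of independent genes with a biological coefficient of variation of 0.16. The median for the 77 genes was 0.0694 and they moved together, so that run says nothing about their calls. The SE is the log2 fold change over the square root of F. CPM is TMM-scaled, with a prior count of 2 on the log scale. Alternatives included DESeq2 1.42.0. GC content and coding length came from GENCODE M21 (GRCm38), matched by identifier (75 of 77 with the same symbol). The GC correction used loess offsets (span 0.4) per library. Genes were named by rule: up to 12 called per direction and comparison, the 3 smallest p, the 3 highest and lowest levels, PCR references, paralogs and genes with known separate roles. Replicate numbers were not taken as pairs in the main fit, and no library batch is given. The serial numbers in the library titles run in separate blocks by group, and what they stand for is not given. If they follow the order of handling, its effect cannot be told apart from that of the group.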

Additional observations from a re-analysis of the deposited data

Results flagged for a closer look

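In 93 groups of 8 libraries, 30 named genes and the summed share in each group, 6 held a library that stood apart from the other 7 by Dixon's criterion, where chance gives about 1 in 20. In control 6, Rpl11 was at 307 CPM (249 to 264 in the other controls), Rpl19 at 414 CPM (339 to 370), Rplp2 at 310 CPM (221 to 246) and Rps19 at 299 CPM (234 to 253). In rofecoxib 5, Rpl5 was at 346 CPM (384 to 392 in the other rofecoxib libraries) and Rps3a at 565 CPM (609 to 634).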

How the results depend on the processing

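The median log2 fold changes of the 77 genes kept their direction against control in each alternative run, from 0.07 to 0.12 with celecoxib and from 0.08 to 0.11 with rofecoxib when 1 library was left out. The counts moved more. With celecoxib the count of 0 became 10 with DESeq2, 2 with GC correction, 1 with GC correction and the replicate block, 5 with GC and length correction, 4 with length correction and 1 without control 6 and rofecoxib 2, and it ran from 0 to 5 with 1 library left out. With rofecoxib the count of 15 became 25 with DESeq2, 5 with no filter on low counts, 9 with GC correction, 6 with GC correction and the replicate block, 6 with GC and length correction, 23 with length correction and 8 with the brown adipocyte score, and it ran from 7 to 23. Between the drugs the count of 6 became 1 with no filter, 1 with GC correction, 2 with GC correction and the replicate block and 11 with length correction, and it ran from 2 to 9. That median, 0.012, was -0.008 with GC correction and -0.0043 with plain library totals, and ran from -0.0089 without rofecoxib 5 to 0.0237 without celecoxib 2. Over 24 pairs of same-numbered libraries, correlations of the deviations from the group means ran from -0.33 to 0.536 and 11 were over 0.1. Only 3 libraries were closest to their own number. Libraries of different numbers were not summarised beside them, so whether the numbers mark pairs cannot be read from these values. Between control and celecoxib, pairs 1, 2, 5, 6 and 7 were at 0.379, 0.536, 0.532, 0.345 and 0.272. Pairs 3, 4 and 8 were at -0.186, 0.0975 and -0.0449. The replicate block alone gave 0, 11 and 4 calls. Of the named genes, Rps27l with celecoxib turned to 0.0032 with GC correction, 0.0059 with GC correction and the replicate block, 0.0117 without control 6 (also with rofecoxib 2 left out; from -0.0493 to 0.0117 with 1 library left out) and 0.0442 with the brown adipocyte score, and with rofecoxib to -0.0303 with GC and length correction. Rplp1 turned to -0.0114, -0.0124 and -0.0266 with celecoxib under GC correction, GC correction with the replicate block, and GC and length correction, and to 0.022 and 0.02 with rofecoxib under the first 2. Rps29 with rofecoxib turned to 0.0009 and 0.0013 under the same 2, and Rps15a between the drugs to 0.0267 with GC and length correction. The cause of these changes was not tested.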
